A study of Macaca radiata with 6 samples.

Results

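CYP3A4 was represented on the array by 4 probe sets, which were all the probe sets, of 52865, whose only symbol in the platform annotation is CYP3A4. The gene was chosen by the size of its signal difference between the groups on these same arrays, so that its levels after PGF2alpha and after vehicle are given as a description, without a test. The tissue was the corpus luteum of female bonnet monkeys (Macaca radiata) on day 10 of the luteal phase, in 2 groups of 3 arrays. The PGF2alpha group had received 3 intramuscular injections of prostaglandin F2-alpha, a luteolytic prostaglandin, of 59 µg/kg body weight, and the vehicle group had received phosphate-buffered saline. Tissue was taken 24 h after administration in both groups. The labels do not tie arrays to animals, and p-values therefore rest on the spread between arrays of a group, part of which may be technical. The probes were designed on rhesus macaque sequence, another species.

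CYP3A4 is a haem-containing cytochrome P450 of the endoplasmic reticulum. In human liver and intestine it is a main oxidising enzyme of drugs, and it also hydroxylates steroids, among them progesterone and testosterone. It draws electrons from the reductase POR and from cytochrome b5 (CYB5A). In human hepatocytes its transcription is raised by the nuclear receptors PXR (NR1I2) and CAR (NR1I3), which pair with RXRA, and depends on liver factors such as HNF4A. The corpus luteum is the gland of the ovary that makes progesterone.

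All 4 CYP3A4 probe sets are of the kinds that can read more than one transcript. The suffix _s_at marks probes shared between transcripts, and _x_at marks a set in which some probes resemble other sequences. They are therefore reported one by one. One of them, with a name that starts with Mmu in place of MmugDNA and a suffix of _x_at, is called the Mmu set here. MmugDNA.31167.1.S1_s_at and MmugDNA.31167.1.S1_x_at carry the same target name and were not taken as independent readings. MAS5 signals are linear intensities on an arbitrary scale, and signals were compared between arrays within a probe set. Across sets, mean signal served to choose 1 set a gene and the CYP3A4 set used for likeness. Signals were also summed over the sets of a marker list, and such a sum is weighted towards its brightest sets. The median signal of the 6 arrays, the brightness filter used here, lay between 115 and 134.

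Arrays differed in ways that bear on CYP3A4. Of the 1351 probe sets that passed the threshold between the groups, PGF2alpha replicate 3 was the treated array nearest to the vehicle arrays in 956 (70.8%). RNA quality, read as the ratio of 3-prime to 5-prime control signals, overlapped between the groups, at 1.73 to 1.78 after PGF2alpha and 1.49 to 2.25 after vehicle for actin and 1.39 to 1.68 and 1.41 to 1.73 for GAPDH. The tissue carried steroid genes as labelled: STAR, the cholesterol carrier of steroid cells, had signals of 33832 to 50313 after PGF2alpha and 58817 to 71945 after vehicle, and of 10 luteal steroid genes 0 stayed below the array median on all arrays.

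CYP3A4 signals were lower after PGF2alpha than after vehicle in all 4 probe sets, with differences of -4.39 to -3.33 on the log2(signal + 40) scale, and the groups did not overlap in any of them. For comparison, all treated arrays lay below all vehicle arrays in 13.7% of the tested probe sets. The signals of MmugDNA.1267.1.S1_s_at were 342, 336 and 1475 in PGF2alpha replicates 1, 2 and 3, against 17255, 26814 and 4317 in vehicle replicates 4, 5 and 6. The means were 718 ± 656 after PGF2alpha and 16129 ± 11291 after vehicle (SD, n = 3 each), so the vehicle mean was 22.5 times the PGF2alpha mean. PGF2alpha replicate 3 was well above the other treated arrays, and vehicle replicate 6 well below the other vehicle arrays, so the lowest vehicle signal was 2.93 times the highest treated one. In whole tissue, fewer cells of a type and less CYP3A4 RNA per cell cannot be told apart.

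The Mmu set read 196, 97.0 and 1717 in PGF2alpha replicates 1, 2 and 3, against 2829, 4860 and 6552 in vehicle replicates 4, 5 and 6. Its log2 difference was -3.56. Here vehicle replicate 6 was the highest of all arrays, in place of the lowest of the vehicle arrays, and PGF2alpha replicate 2 lay below the array median.

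MmugDNA.31167.1.S1_x_at had signals of 214, 236 and 1494 in PGF2alpha replicates 1, 2 and 3, against 4772, 6108 and 3676 in vehicle replicates 4, 5 and 6, a log2 difference of -3.33. MmugDNA.31167.1.S1_s_at had signals of 163, 150 and 532 in PGF2alpha replicates 1, 2 and 3, against 2949, 4571 and 2169 in vehicle replicates 4, 5 and 6, a log2 difference of -3.48. In both, vehicle replicate 5 was the highest and vehicle replicate 6 the lowest of the vehicle arrays, as for MmugDNA.1267.1.S1_s_at. The vehicle mean was 7.49 times the PGF2alpha mean in MmugDNA.31167.1.S1_x_at, 11.5 times in MmugDNA.31167.1.S1_s_at and 7.09 times in the Mmu set. Ranked by log2 difference among the 26944 tested probe sets, of which 5.01% passed the threshold in either direction, the CYP3A4 sets held places 1, 4, 6 and 7 from the most negative. This rank belongs to the contrast that chose the gene.

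**Figure D1:**
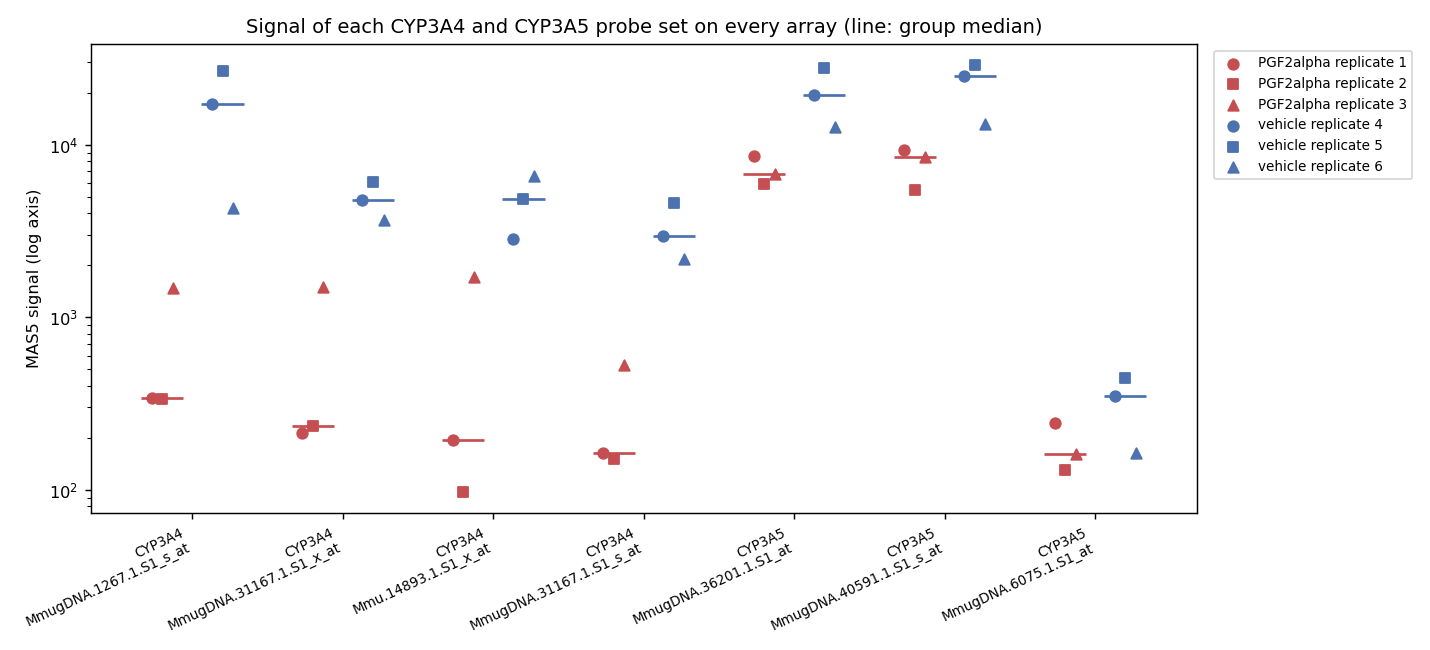
MAS5 signal (log axis) of the 4 CYP3A4 and 3 CYP3A5 probe sets on each array, PGF2alpha in red and vehicle in blue, with a line at each group median. The groups are apart in every CYP3A4 set, with PGF2alpha replicate 3 the highest of the treated arrays in each, and vehicle replicate 6 is the lowest vehicle array in 3 of the 4 CYP3A4 sets and the highest in the Mmu set.

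CYP3A4 varied more between arrays of a group than most probe sets did. The SD of log2 values pooled within groups was 1.27 for MmugDNA.1267.1.S1_s_at, 1.44 for the Mmu set, 1.07 for MmugDNA.31167.1.S1_x_at and 0.735 for MmugDNA.31167.1.S1_s_at. Among all tested probe sets these lie at the 99.9th, 99.9th, 99.6th and 97.2nd percentiles. In the same order, the SDs of the vehicle arrays alone lie at the 99.8th, 93.9th, 77.6th and 91.2nd percentiles. Those of the PGF2alpha arrays alone lie at the 98.2nd percentile or above. PGF2alpha replicate 3 stood at 3.40 to 12.5 times the geometric mean of PGF2alpha replicates 1 and 2 in the 4 sets. Without it the log2 differences were -5.06 for MmugDNA.1267.1.S1_s_at, -4.66 for the Mmu set, -4.18 for MmugDNA.31167.1.S1_x_at and -3.99 for MmugDNA.31167.1.S1_s_at, so the size of the difference depends on this array.

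The vehicle arrays disagreed between probe sets. Vehicle replicate 6 stood at 0.201 times the geometric mean of vehicle replicates 4 and 5 in MmugDNA.1267.1.S1_s_at, at 0.681 and 0.591 times in the 2 MmugDNA.31167 sets, and at 1.77 times in the Mmu set. Without vehicle replicate 6 the log2 difference was -5.16 for MmugDNA.1267.1.S1_s_at and -3.29 for the Mmu set. Without PGF2alpha replicate 2 that of the Mmu set was -2.81. Across the 6 arrays, MmugDNA.1267.1.S1_s_at and the Mmu set had a Pearson r of 0.864, and of 0.465 once each value was taken as its deviation from the group mean, the lowest of the 6 pairs. The highest such pair was that of the 2 MmugDNA.31167 sets, at 0.952. Whether the sets read the same transcripts was not tested.

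Within hybridisation run 1, with 2 arrays a group, the log2 differences of the 4 sets ran from -3.83 to -2.94. Within run 2, with 1 array a group, they ran from -5.52 to -3.97. CYP3A4 was therefore lower after PGF2alpha in both runs, as it had to be where all treated arrays lay below all vehicle arrays.

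CYP3A5, a close relative of CYP3A4 and an oxidase of overlapping substrates, fell after PGF2alpha, with smaller differences than those of CYP3A4. MmugDNA.36201.1.S1_at, a set of the kind taken to read 1 gene, had signals of 8557, 5941 and 6729 in PGF2alpha replicates 1, 2 and 3, against 19500, 27851 and 12651 in vehicle replicates 4, 5 and 6. CYP3A5 in this set fell by 1.44 on the log2 scale (SE 0.263, limma adjusted p = 0.0202), and every treated array lay below every vehicle array. Its call was lost without PGF2alpha replicate 2 (adjusted p = 0.0893) and without vehicle replicate 4 (adjusted p = 0.0594).

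The second CYP3A5 set, MmugDNA.40591.1.S1_s_at, fell by 1.48 (SE 0.297, limma adjusted p = 0.0271), to 7766 ± 2033 after PGF2alpha against 22380 ± 8160 after vehicle (SD, n = 3 each). Leaving out PGF2alpha replicate 1 or 2 gave an adjusted p of 0.059 or 0.102, and leaving out vehicle replicate 4 or 5 gave 0.0847 or 0.0756. The third, MmugDNA.6075.1.S1_at, was dim, with signals of 130 to 245 after PGF2alpha and 164 to 442 after vehicle, and did not pass (-0.65, adjusted p = 0.312). A further set that the annotation assigns to both genes, and which was counted for neither, read 7571 to 12317 after PGF2alpha and 17762 to 38912 after vehicle.

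The arrays were ordered differently in the 2 genes. In CYP3A5, PGF2alpha replicate 3 stood at 0.944 times the geometric mean of PGF2alpha replicates 1 and 2 in MmugDNA.36201.1.S1_at and at 1.18 times in MmugDNA.40591.1.S1_s_at, where the 4 CYP3A4 sets had 3.40 to 12.5. Vehicle replicate 6 was the lowest vehicle array in all 3 CYP3A5 sets, as in 3 of the 4 CYP3A4 sets. How far the sets of one gene read transcripts of the other was not tested, and the difference in fold between the genes has no test since CYP3A4 was chosen for its fold. CYP3A43, the remaining family member named on the array, stayed below the array median on all arrays, at 35.7 to 60.6 after PGF2alpha and 65.3 to 75.6 after vehicle, and was not tested.

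**Figure D2:**
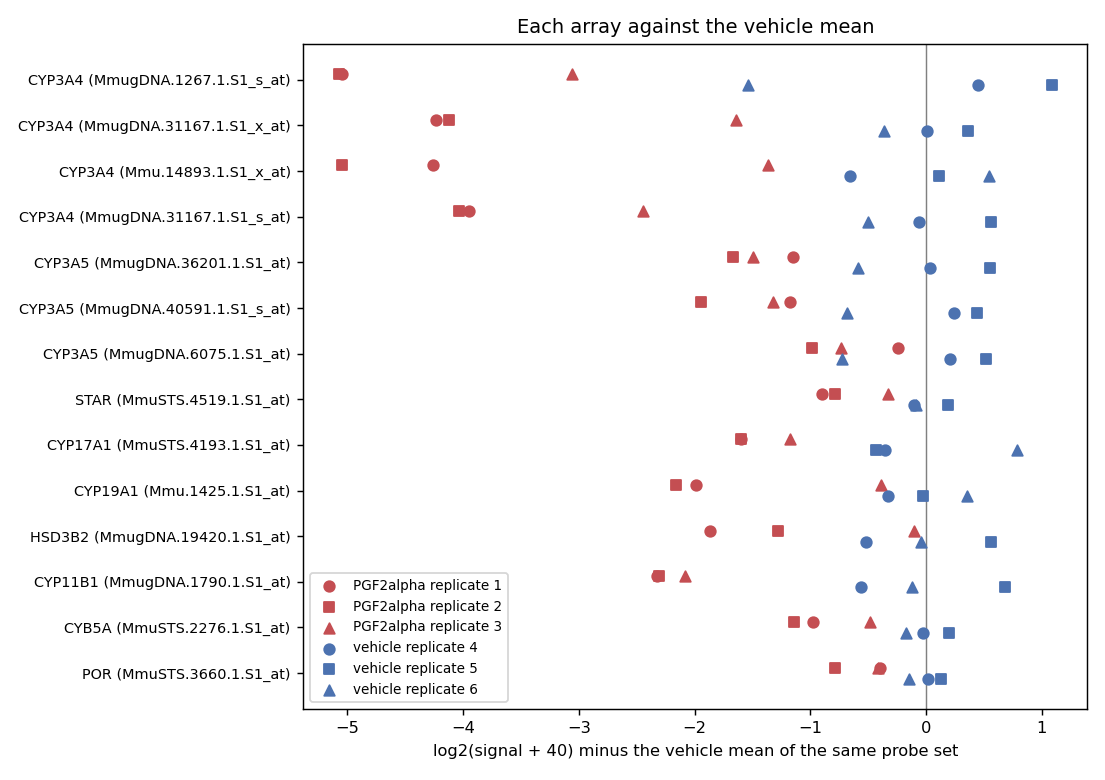
Each array's log2(signal + 40) minus the vehicle mean of the same probe set, PGF2alpha in red and vehicle in blue, for CYP3A4, CYP3A5 and 7 steroid or P450 partner genes. Treated arrays of CYP3A4 lie between -5.07 and -1.36, against -1.95 to -0.24 in CYP3A5 and -0.90 to -0.33 in STAR.

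A list of 30 regulators of CYP3A4, mostly known from liver, held 8 tested genes above and 7 below no change. Of these 15, 2 rose and 0 fell, against 3.76% and 2.31% of all 9980 tested genes, and the median log2 fold change was 0.01 against -0.02 over all tested genes. CEBPD, an inflammation-responsive transcription factor, had signals of 3759, 3120 and 3953 in PGF2alpha replicates 1, 2 and 3, against 2187, 1557 and 1916 in vehicle replicates 4, 5 and 6. It rose by 0.93 (SE 0.169, adjusted p = 0.0197), and leaving out PGF2alpha replicate 1 or 2 (adjusted p = 0.0749 or 0.0541) or vehicle replicate 5 or 6 (0.052 or 0.0693) ended the call. The vitamin D receptor VDR, which can activate CYP3A4 in human intestine, rose by 1.73 (SE 0.389, adjusted p = 0.0384). Its signals were 199, 555 and 193 after PGF2alpha, against 81.9, 44.8 and 48.2 after vehicle. VDR reached the brightness filter only through its treated arrays, so its testing favoured a rise. Its call was lost without any single array other than PGF2alpha replicate 3 (adjusted p = 0.0683 to 0.127), and its second tested probe set did not pass (1.27, adjusted p = 0.188).

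The receptors that drive CYP3A4 in liver were dim here. NR1I2 (PXR) had signals of 7.92 to 61.0 after PGF2alpha and 11.7 to 25.4 after vehicle, and NR1I3 (CAR) of 18.6 to 67.0 and 11.2 to 28.0. Both stayed below the median of every array in both groups and were not tested. Signals this low on a probe set of another species do not show that a transcript is absent. The glucocorticoid receptor NR3C1 (-0.18, adjusted p = 0.493) and RXRA (-0.01, adjusted p = 0.995) did not pass. The bile acid receptor NR1H4 (-1.08, adjusted p = 0.0539) and HNF4G, a relative of HNF4A (-0.67, adjusted p = 0.0665), did not pass either, and a second probe set of each was positive (0.04 and 0.49). NR1H4 passed in 4 of 15 alternatives. These were the hybridisation run as a block (adjusted p = 0.0272), array weights (0.0341), a pseudocount of 160 (0.0455) and quantile scaling (0.0477).

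Genes of electron supply and haem had a median log2 fold change of -0.47, with 0 of 17 tested genes risen and 3 fallen, where 3.76% of all tested genes rose and 2.31% fell. PGRMC1, a membrane haem protein that binds P450 enzymes, had signals of 8137, 8949 and 9845 in PGF2alpha replicates 1, 2 and 3, against 14434, 16533 and 13792 in vehicle replicates 4, 5 and 6. It fell by 0.73 (SE 0.132, adjusted p = 0.019), and 2 of its 3 other probe sets fell as well (-0.78 to -0.66 over the 3). CYB5A, the cytochrome b5 that passes electrons to P450 enzymes, fell by 0.87 (SE 0.184, adjusted p = 0.0315), to 9577 ± 2383 after PGF2alpha against 17298 ± 2240 after vehicle (SD, n = 3 each). The biliverdin reductase BLVRB fell by 0.94 (SE 0.218, adjusted p = 0.0426).

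None of these 3 calls held without PGF2alpha replicates 1 or 2 or vehicle replicates 4, 5 or 6, with adjusted p of 0.0528 to 0.0764 for PGRMC1, 0.0713 to 0.114 for CYB5A and 0.0776 to 0.15 for BLVRB. POR, the reductase itself, stood at -0.53 (adjusted p = 0.0995), and 2 of 3 further POR sets were positive. ALAS1, the first enzyme of haem synthesis, stood at -1.25 (adjusted p = 0.074), and it passed without vehicle replicate 4 (adjusted p = 0.0379).

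Other targets of PXR in human liver, transporters and conjugating enzymes of drugs, had 2 of 10 tested genes fallen and 0 risen, with a median of -0.21, beside 2.31% fallen, 3.76% risen and a median of -0.02 over all tested genes. For GSTA1, counted by a set at -0.11 that did not pass, another set rose (1.21, adjusted p = 0.017). For GSTA2, counted by a set at -0.15 that did not pass, another set fell (-0.69, adjusted p = 0.0486). ABCB1, the drug efflux pump P-glycoprotein, had signals of 2235, 1690 and 1932 in PGF2alpha replicates 1, 2 and 3, against 3747, 4053 and 4779 in vehicle replicates 4, 5 and 6. It fell by 1.09 (SE 0.16, adjusted p = 0.00963) and passed under all 16 alternatives. GSTA3, a glutathione transferase that also isomerises steroids in human tissue, fell by 1.53 (SE 0.314, adjusted p = 0.029), a value read from a set that can cross-hybridise. Its other tested set fell as well (-1.56, adjusted p = 0.0356). In the counted set PGF2alpha replicate 3, at 17535, was again the treated array nearest to the vehicle arrays. PGF2alpha replicates 1 and 2 read 6135 and 8536 there. The call for GSTA3 held without PGF2alpha replicate 3 and was lost without any of the other 5 arrays (adjusted p = 0.0755 to 0.114). The exporter ABCC3 (0.60, adjusted p = 0.0754) and CYP2B6 (-0.27, adjusted p = 0.617) did not pass.

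Of 8 tested genes of steroid hydroxylation and inactivation, 0 passed, with a median of -0.41. Over all tested genes 2.31% fell and 3.76% rose, with a median of -0.02, so 0 of 8 lies near those shares. The nearest to the threshold were HSD17B4 (-0.59, adjusted p = 0.0579) and DHRS9 (-1.87, adjusted p = 0.0677), both oxidoreductases. CYP1B1, an oestrogen hydroxylase, stood at 0.88 (adjusted p = 0.0919), though both of its other probe sets rose (1.16 and 1.28), and it passed with the run blocked (adjusted p = 0.0327). DHRS9 read 1806, 2745 and 10069 in PGF2alpha replicates 1, 2 and 3, against 13160, 13141 and 14468 in vehicle replicates 4, 5 and 6. Without PGF2alpha replicate 3, DHRS9 passed (adjusted p = 0.000515), as did HSD17B4 (adjusted p = 0.0241).

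Of 9 tested steroid synthesis genes, 3 fell, 0 rose and 6 did not pass, where 2.31% of all tested genes fell and 3.76% rose. Their median was -1.09 and their range -2.24 to 0.04. CYP11B1, the steroid 11-beta-hydroxylase of the adrenal cortex, read 198, 200.4 and 240.0 in PGF2alpha replicates 1, 2 and 3, against 766, 1873 and 1052 in vehicle replicates 4, 5 and 6. It fell by 2.24 (SE 0.286, adjusted p = 0.00648) and passed under all 16 alternatives, with its other probe set at -1.01 (adjusted p = 0.0327). The androgen-forming hydroxylase and lyase CYP17A1 fell by 1.46 (adjusted p = 0.0299), a call lost without PGF2alpha replicate 1 (adjusted p = 0.1) or 2 (adjusted p = 0.113) and with eBayes without trend (adjusted p = 0.0637).

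STAR fell by 0.67 (adjusted p = 0.0497), a call that held in 5 of 16 alternatives. It ended with any array but PGF2alpha replicate 3 left out (adjusted p = 0.0983 to 0.169) and with the run blocked (adjusted p = 0.0572), among others. The aromatase CYP19A1 did not pass (-1.51, adjusted p = 0.0694). The same held for 2 hydroxysteroid dehydrogenases, HSD17B1 at -1.62 (adjusted p = 0.0533) and HSD3B2 at -1.09 (adjusted p = 0.172). HSD17B1 reached the brightness filter only through the vehicle arrays, so its testing, and its place in the list median, favoured a fall. Without PGF2alpha replicate 3, CYP19A1 (adjusted p = 0.00116) and HSD3B2 (adjusted p = 0.019) passed, and CYP19A1 did so with the run blocked too (adjusted p = 0.0494). PGF2alpha replicate 3 stood at 3.23 times the geometric mean of PGF2alpha replicates 1 and 2 in CYP19A1, 2.77 times in HSD3B2, 1.43 times in STAR and 1.21 times in CYP11B1.

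**Figure D3:**
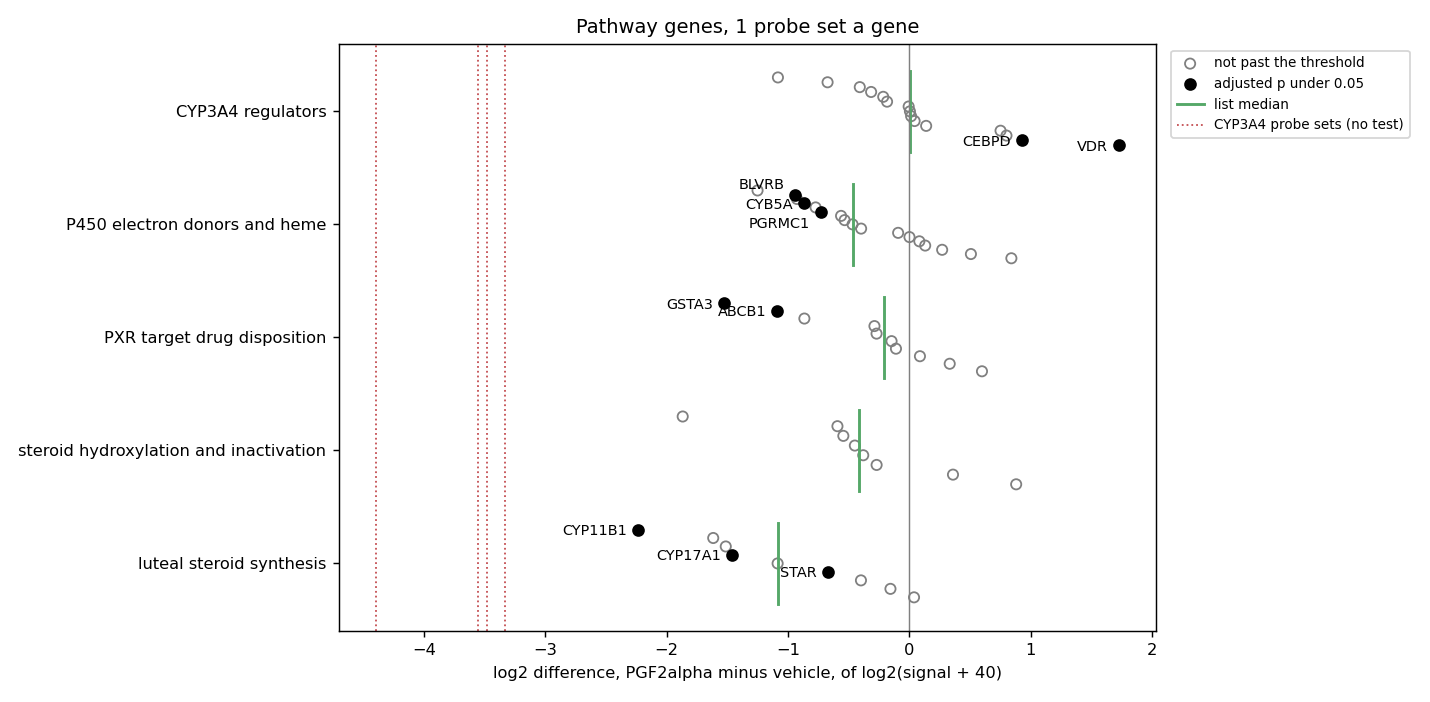
Log2 differences, PGF2alpha minus vehicle, of the tested genes of 5 pathway lists, 1 probe set a gene. Filled points passed an adjusted p of 0.05, green bars mark list medians (-1.09 to 0.01) and dotted lines mark the CYP3A4 sets, which were not tested. All listed genes lie to the right of the CYP3A4 lines.

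Over the 6 lists together, CYP3A4 left out, 9 of 60 tested genes fell and 2 rose, with a median of -0.30, where 231 of all 9980 tested genes fell and 375 rose. Leaving out PGF2alpha replicate 1, 2 or 3 left 2, 2 or 19 called genes, and leaving out vehicle replicate 4, 5 or 6 left 6, 3 or 4. Among all other genes with a CYP symbol, 35 had a probe set and 20 passed the brightness filter, of which 3 fell (CYP11B1, CYP3A5 and CYP17A1) and 0 rose, beside the same 2.31% and 3.76% of all tested genes. Their log2 fold changes ran from -2.24 to 0.88.

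Markers of immune cells moved with these results. Macrophage markers rose in 7 of 11 tested genes and fell in 0, where 3.76% of all tested genes rose and 2.31% fell. One of the 7, the scavenger receptor MARCO, reached the brightness filter only through the PGF2alpha arrays. Their summed signal was 26591 to 32799 after PGF2alpha and 7967 to 13398 after vehicle. Neutrophil markers rose in 4 of 5, with summed signals of 12732 to 31379 after PGF2alpha and 3803 to 6956 after vehicle. No macrophage marker, but 2 of 8 neutrophil markers, MPO and ELANE, lay below the median on all arrays. These 2 were not tested and stood at -0.28 and -0.61, and CSF3R, also untested, stood at 1.09. In the neutrophil sums after vehicle, LCN2 alone read 2954 to 6486. The part of macrophages and neutrophils in the CYP3A4 difference was not tested. Endothelial markers (1 of 8 rose, median 0.10), fibroblast markers (1 of 6 rose, median 0.15) and red cell markers (0 of 3 passed, median -0.23) had 0 genes that fell.

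Most markers of hepatocytes and enterocytes, the cells in which CYP3A4 is best known, were dim in both groups. Dim sets were common outside these lists too, since 26944 of all 52865 probe sets passed the brightness filter. Of 11 hepatocyte markers, 6 lay below the median on all 6 arrays, including the fetuin gene AHSG at 8.78 to 20.1 after PGF2alpha and 7.89 to 15.1 after vehicle, and the fibrinogen chain FGG at 6.96 to 29.6 and 7.30 to 48.6. By contrast, APOA1 (5683 to 8532 after PGF2alpha and 7571 to 11786 after vehicle), SERPINA1 (1977 to 2480 and 2878 to 3220) and HP (929 to 2642 and 1816 to 11736) lay above it on all arrays. Of 9 enterocyte markers, 7 lay below it throughout, and VIL1 lay above it on all arrays, at 3029 to 3796 after PGF2alpha and 2275 to 3921 after vehicle. The summed signal of the hepatocyte list was 9891 to 12102 after PGF2alpha and 13230 to 23368 after vehicle, and that of the enterocyte list was 3353 to 4299 and 2662 to 4342. The highest hepatocyte sum was that of vehicle replicate 4, where HP read 11736, against 1816 and 2487 in vehicle replicates 5 and 6. HP and APOA1 overlapped between the groups and did not pass (adjusted p = 0.266 and 0.312). Of 4 tested hepatocyte markers, AMBP, a plasma protein precursor, fell by 1.26 (adjusted p = 0.026), and it reached the brightness filter only through the vehicle arrays. SERPINA1, counted by a set that did not pass (-0.51, adjusted p = 0.0815), had 4 other tested sets. These ran from -0.66 to 2.08. Of them, 2 had the opposite sign to the counted set and 2 passed (smallest adjusted p = 0.0103). No marker of either list was listed at 0.

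Patterns like that of MmugDNA.1267.1.S1_s_at, the CYP3A4 set of highest mean log2 signal, were sought among 9979 other genes by Pearson r of log2(signal + 40) over the 6 arrays. The 8 genes of highest r were TRAPPC2 (0.996), HMGXB3 (0.993), PBX3 (0.991), PARD6A (0.99), ODC1 (0.989), ECHDC2 (0.989), ABTB2 (0.988) and B3GAT2 (0.988). These coefficients rest on 6 points in 2 groups that lie apart, and they describe an order of arrays, not the size of a change. In all, 125 genes had an r of at least 0.95, and 98 genes shared the full rank order of the arrays with CYP3A4. With vehicle replicates 5 and 4 highest, vehicle replicate 6 next and PGF2alpha replicate 3 above PGF2alpha replicates 1 and 2, that order is the one of the MmugDNA.1267.1.S1_s_at signals given above.

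Among these 8, the homeodomain transcription factor PBX3 had the log2 difference nearest to that of CYP3A4. Its signals were 590, 731 and 2914 in PGF2alpha replicates 1, 2 and 3, against 21083, 24080 and 8818 in vehicle replicates 4, 5 and 6, a log2 difference of -3.87, from a set that can cross-hybridise. ECHDC2, a mitochondrial enoyl-CoA hydratase relative, followed at -1.89, and ODC1, the first enzyme of polyamine synthesis, at -1.26. The other 5 stood between -0.75 and -0.46. The likeness contains the group difference, so no test is given for these genes. The 4 genes of lowest r were ZPR1 (-0.995), TREM1 (-0.993), NUS1 (-0.992) and RBM26 (-0.992). TREM1, an activating receptor of neutrophils and monocytes, read 638, 636 and 421 in PGF2alpha replicates 1, 2 and 3, against 91.2, 82.0 and 192 in vehicle replicates 4, 5 and 6, a log2 difference of 1.94.

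The names changed with the CYP3A4 probe set, a comparison chosen after seeing the data. Of the 8 genes, 0 were among the 8 most like the Mmu set, 0 among those most like MmugDNA.31167.1.S1_x_at, and 1 among those most like MmugDNA.31167.1.S1_s_at. PBX3 kept an r of 0.985 with MmugDNA.31167.1.S1_x_at, 0.991 with MmugDNA.31167.1.S1_s_at and 0.908 with the Mmu set. By deviations from the group means, among genes with a pooled SD of at least 0.5, the highest r were those of KANK1 (0.99), PNPLA7 (0.979), SPDEF (0.963), SEC31B (0.96), CD46 (0.955), PBX3 (0.949), EFS (0.946) and OSGIN1 (0.946). The groups were apart in PBX3 and overlapped in the other 7.

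**Figure D4:**
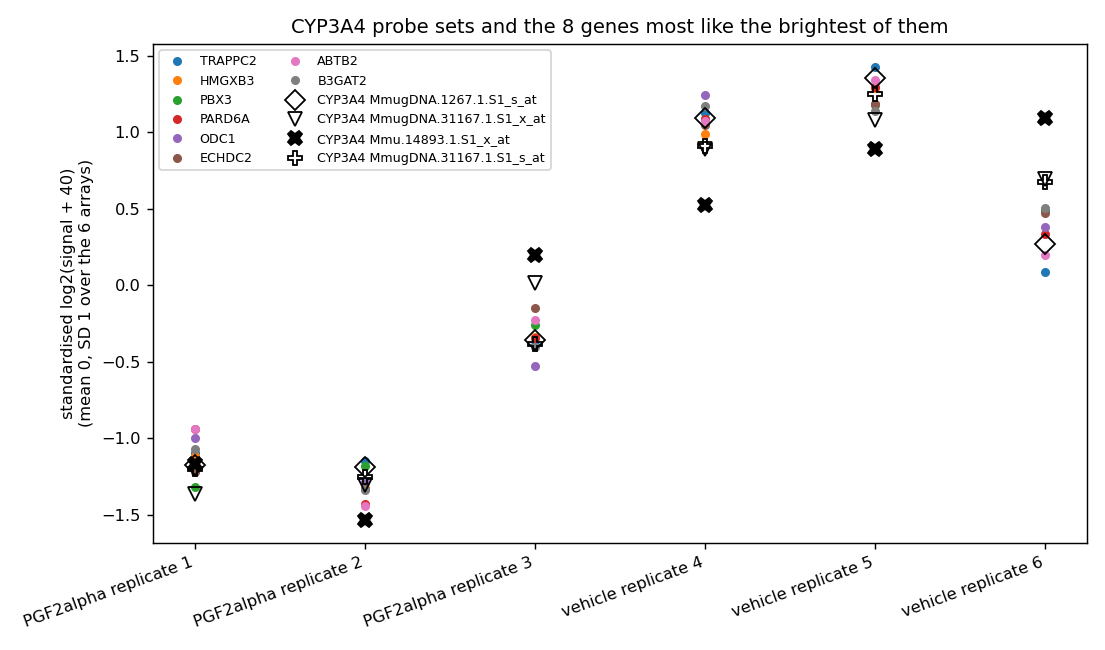
Log2(signal + 40) of the 4 CYP3A4 probe sets (black symbols) and of the 8 genes most like MmugDNA.1267.1.S1_s_at (coloured points), each standardised to a mean of 0 and an SD of 1 over the 6 arrays. The 8 genes follow MmugDNA.1267.1.S1_s_at, whereas the Mmu set lies above them on PGF2alpha replicate 3 and vehicle replicate 6 and below them on vehicle replicates 4 and 5.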

How the data were processed

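Luteal RNA of bonnet monkeys was hybridised to 6 Rhesus arrays, 3 a group, with groups and replicate numbers read from the sample titles. The authors deposited 1 linear MAS5 intensity for each probe set and array, per the submitters' processing notes. Their trimmed mean, with 2% left out at each end, was 500.0 on every array, so they were used as deposited. The scanner and fluidics records of the arrays gave no expression values. Their times placed the arrays in 2 hybridisation runs, PGF2alpha replicate 2 and vehicle replicate 4 in run 2 and the others in run 1.

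Symbols came from the platform annotation, which can be old. It paired 24969 of 52865 probe sets with 1 symbol. Values were analysed as log2(signal + 40). A probe set was tested where its signal reached the array median on at least 3 arrays, which kept 26944. A gene was read from its tested probe set of highest mean log2 value, giving 9980 genes. limma 3.58.1 in R 4.3.3 (lmFit, eBayes with a variance trend, no covariate, two-sided) gave p-values, adjusted by Benjamini-Hochberg across the 26944 and called under 0.05. The fit was tested on simulated data with independent noise for each value, without shifts shared by a whole array. That simulation therefore cannot show how calls depend on single arrays. No test was made of CYP3A4 itself.

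CYP3A4 and the 6 pathway and 7 marker lists were chosen with earlier results of these data known. Named genes are those past the threshold and the 3 of smallest p of each pathway list, 13 regulators, partners and steroid genes whatever their values, and the genes most like or unlike CYP3A4 over the arrays. HNF4A and CYP11A1 are not analysed here. Alternatives were other scaling, pseudocounts, filters and variance models, the run as a block, no cross-hybridising probe sets, and each array left out.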

Additional observations from a re-analysis of the deposited data

How the results depend on the processing

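No paired analysis was possible because the groups share no replicate number. The log2 differences of the 4 CYP3A4 sets moved by less than 1 SD within groups with pseudocounts of 10 and 160 and with quantile or median scaling. The same held with each array left out. Blocking on the run could not move them, since each run held as many PGF2alpha as vehicle arrays. Since the groups did not overlap, these differences could not change sign with a pseudocount or a left-out array. Over the left-out arrays they ran from -5.16 to -3.85 for MmugDNA.1267.1.S1_s_at, -4.66 to -2.81 for the Mmu set, -4.18 to -2.88 for MmugDNA.31167.1.S1_x_at and -3.99 to -3.20 for MmugDNA.31167.1.S1_s_at.

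Called probe sets, 1351 in all, numbered 826 without the filter on low values, 669 with eBayes without trend, and 223 (without PGF2alpha replicate 2) to 1903 (without PGF2alpha replicate 3) over the left-out arrays. Called pathway genes, 11, numbered 6 without the filter, 3 without the trend, 19 with array weights and 2 to 19 over the left-out arrays. The cause of these shifts was not tested. With eBayes without trend, calls were lost by both CYP3A5 sets (adjusted p = 0.0514 for MmugDNA.36201.1.S1_at and 0.0603 for MmugDNA.40591.1.S1_s_at), VDR (0.0542), PGRMC1 (0.0588), CYP17A1 (0.0637), GSTA3 (0.0654), BLVRB (0.0755), CYB5A (0.0764) and STAR (0.12). STAR also lost its call with median scaling (adjusted p = 0.059), a pseudocount of 10 (0.0509), no filter (0.193) and no cross-hybridising sets (0.0506). Without the filter, calls were lost as well by VDR (adjusted p = 0.0733), BLVRB (0.0721), CYB5A (0.0684) and GSTA3 (0.0563). VDR lost its call with a pseudocount of 160 too (adjusted p = 0.0521). Of the 8 genes most like CYP3A4, 7 remained with a pseudocount of 160, and 3 of the 8 by deviations from group means. By Spearman rho, 5 of the 8 were among 98 genes tied at the highest value, so that over 6 arrays this measure does not rank them.

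Detection calls were not used here, so the CYP3A4 signals of 97.0 to 342 in PGF2alpha replicates 1 and 2 were not set against background, and folds built on them are uncertain in size. The number of arrays limits the precision.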
